A study of Mus musculus with 4 samples.

Results

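Pou5f1 (also known as Oct4), Nanog, Sox2, Klf4 and Esrrb encode transcription factors of the core network that keeps mouse embryonic stem (ES) cells pluripotent. CpG methylation was examined at these 5 genes in 5 fixed intervals of the mouse build mm9: chr17:35638000-35652000 for Pou5f1, chr6:122650000-122668000 for Nanog, chr3:34540000-34560000 for Sox2, chr4:55535000-55551000 for Klf4 and chr12:87690000-87870000 for Esrrb. The members were all cytosines in those intervals that had at least 5 calls in every library, which gave 1064 of 2468166 such cytosines genome-wide and 56 of 155252 windows of 1 kb with at least 3 of them. Esrrb held 447 of the cytosines, Klf4 297, Sox2 259, Pou5f1 53 and Nanog 8.

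The assay was reduced representation bisulfite sequencing (RRBS) of genomic DNA, in which the enzyme MspI cuts at CCGG so that mainly CpG-rich fragments are read, and bisulfite turns unmethylated cytosines into a base read as T. The 4 libraries were 2 of wild-type (WT) cells and 2 of cells with a knockout of Naa10 (KO), a gene for the catalytic subunit of an N-terminal acetyltransferase. Cells of both genotypes were grown in N2B27 medium with LIF, a Mek inhibitor and a Gsk3 inhibitor on irradiated feeder fibroblasts, and then for 5 passages without feeders. The sources used here do not give how the knockout was made, the strain, or whether libraries of a genotype came from separate clones or cultures. The p-values therefore describe only how these libraries spread, which may be technical, and each genotype may stand for 1 line. Bisulfite libraries hold no expression values, so the ES cell label could not be checked against marker expression.

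Pou5f1 and Sox2 bind DNA together at many enhancers of ES cells, Nanog and Esrrb join them there, and Klf4 supports the same network downstream of LIF signalling. In ES cells the promoters of active genes with a CpG island carry little CpG methylation, while most CpGs between and within genes are methylated. Several pluripotency promoters, those of Pou5f1 and Nanog among them, are known to gain methylation when cells differentiate. A methylation level here is the percent of calls that read a cytosine as methylated, averaged over the cytosines of a region with equal weight, except in windows, where it is the methylated calls over all calls. In DNA from many cells, a middle level on every copy and full methylation on part of the copies cannot be told apart.

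Which CpGs an RRBS library can read depends on the MspI sites around them, so the promoter sequences below are shown from 250 bases before to 50 bases after the RefSeq start (GRCm38.p6, plus strand of the chromosome, 5′ to 3′). CpGs with at least 5 calls in every library are in capitals, and all other bases are in lower case.
Pou5f1: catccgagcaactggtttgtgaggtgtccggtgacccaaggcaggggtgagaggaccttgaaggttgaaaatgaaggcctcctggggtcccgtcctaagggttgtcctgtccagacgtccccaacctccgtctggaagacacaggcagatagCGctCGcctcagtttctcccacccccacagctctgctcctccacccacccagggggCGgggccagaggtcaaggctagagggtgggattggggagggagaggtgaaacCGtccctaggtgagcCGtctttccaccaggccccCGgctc
Nanog: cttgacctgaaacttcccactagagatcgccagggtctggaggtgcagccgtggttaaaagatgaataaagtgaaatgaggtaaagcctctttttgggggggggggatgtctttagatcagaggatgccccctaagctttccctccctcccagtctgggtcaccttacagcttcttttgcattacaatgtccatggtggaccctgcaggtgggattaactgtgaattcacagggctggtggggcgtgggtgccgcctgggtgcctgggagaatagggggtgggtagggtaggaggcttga
Esrrb first start: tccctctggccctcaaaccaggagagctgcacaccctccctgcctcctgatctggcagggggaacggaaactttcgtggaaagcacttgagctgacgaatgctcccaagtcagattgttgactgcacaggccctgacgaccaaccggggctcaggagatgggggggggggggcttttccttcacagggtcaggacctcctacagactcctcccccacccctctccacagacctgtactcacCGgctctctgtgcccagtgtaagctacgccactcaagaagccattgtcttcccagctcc
Esrrb second start: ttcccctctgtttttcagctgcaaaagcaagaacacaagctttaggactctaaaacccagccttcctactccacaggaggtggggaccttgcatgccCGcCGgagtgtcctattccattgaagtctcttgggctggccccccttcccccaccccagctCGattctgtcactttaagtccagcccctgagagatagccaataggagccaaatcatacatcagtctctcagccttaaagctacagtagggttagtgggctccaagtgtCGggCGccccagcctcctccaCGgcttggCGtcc
The Pou5f1 sequence held 11 CpGs and 2 CCGG sites, and 6 of its CpGs were measured. The Nanog sequence held 4 CpGs and 0 CCGG sites, and 0 of its CpGs were measured. Both Esrrb sequences held 7 CpGs, of which 1 was measured at the first start and 7 at the second. The Sox2 sequence of the same length held 27 CpGs with 18 measured, and that of Klf4 held 40 with 4 measured, each with 3 CCGG sites. Of 27026 RefSeq promoter sequences of 300 bases, 52.6% held CCGG, which reads the same on both strands, and the median sequence held 7 CpGs. A CCGG match describes the sequence only.

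The starts were found in mm9 by matching the CpG pattern of these sequences to the listed cytosines. This placed Pou5f1 at chr17 position 35642977 (10 of 11 CpGs matched), Sox2 at chr3 position 34548917 (24 of 27) and Klf4 at chr4 position 55545347 on the minus strand (36 of 40). Esrrb had a first start at chr12 position 87702067 (6 of 7) and a second at 87762594 (7 of 7), 60527 bp downstream. The Nanog start could not be matched, and a rounded position recalled from general knowledge of mm9 was used, so distances from it are approximate. Exon and intron borders in mm9 were not used here.

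The libraries held between 68586396 and 79540412 calls, and the reads were not counted by molecule. Over all 2468166 cytosines the mean level was 33.0% in both WT libraries, 11.4% in KO replicate 1 and 7.69% in KO replicate 2. Over the 1064 cytosines of the pluripotency genes it was 12.5% and 12.8% in WT against 3.92% and 2.95% in KO. The pluripotency intervals thus started from a lower WT level, and the KO mean was 27.1% of the WT mean there against 29.0% over all cytosines. With 2 libraries against 2, the smallest p a two-sided exact permutation test can give is 0.3333. Calls therefore rest on edgeR's quasi-likelihood test over all features of a kind, and needed a Benjamini-Hochberg adjusted p below 0.05 and a difference of at least 10 percentage points.

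**Figure D1:**
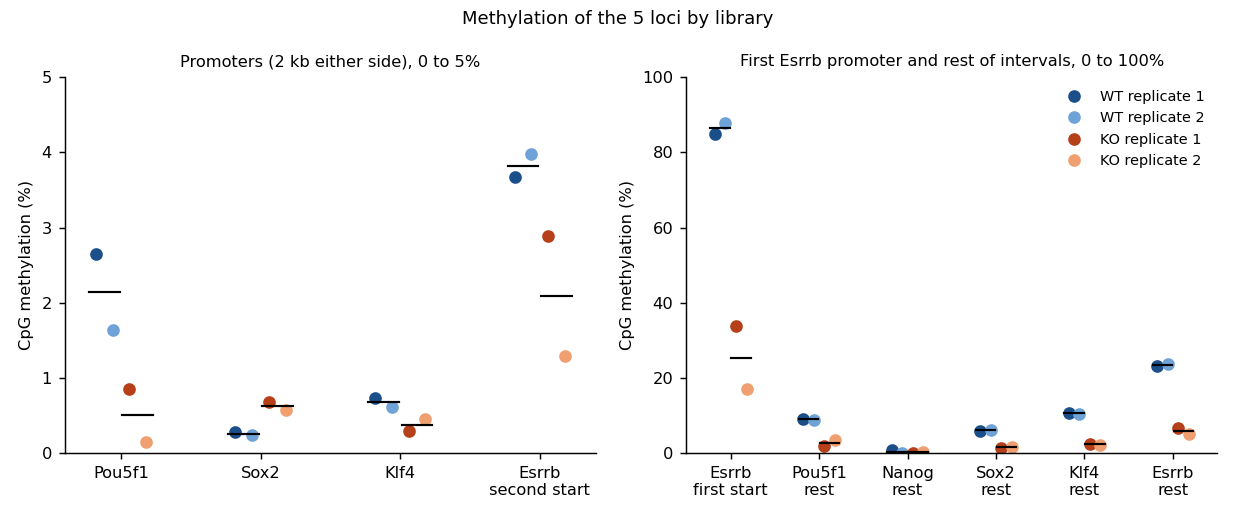
Methylation in percent (vertical axis) of the promoter (2 kb either side of the start) and of the rest of each interval, 1 point per library, with horizontal lines at the group means and a left panel that ends at 5%. The Esrrb first promoter stands at 85.0% and 87.7% in WT, while the promoters of Pou5f1, Sox2 and Klf4 are below 3% in every library.

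The promoters of Pou5f1, Sox2 and Klf4 were almost free of methylation in all 4 libraries, whereas the promoter at the first Esrrb start was highly methylated in WT and lost most of that methylation in KO. A promoter was taken as 2 kb either side of the start. Of the 4 member promoters that could be tested, 1 (Esrrb) was called lower and 0 were called higher, where 7.88% of all 8402 placed promoters were called lower and 0% higher. Without the 10-point minimum, 2 were lower (Pou5f1 and Esrrb) and 0 higher, against 46.2% and 0.202%. The promoters of Pou5f1, Sox2 and Klf4 were too low in WT to fall by 10 points. At an unadjusted p below 0.05, edgeR put 30 of the 8402 higher.

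Pou5f1, the POU-domain factor without which the pluripotent state is lost, had 27 measured promoter cytosines. Their mean level was 2.65% and 1.64% in WT against 0.859% and 0.152% in KO. Neither KO library reached the lower WT library, which was so at 65.4% of all placed promoters. The difference of −1.64 points had an edgeR adjusted p of 0.0299 but is far under the 10-point minimum, and limma on the same data gave an adjusted p of 0.0526. The edgeR adjusted p was also above 0.05 with other call minimums and promoter sizes. It was below 0.05 with strands summed (0.0188) and with the replicate number as a block (0.0384). Leaving out 1 library at a time gave differences from −2.14 to −1.13 points. The window from 24 to 1023 bp after the start held the highest promoter level, 4.83% and 3.09% in WT against 1.97% and 0.385% in KO. In the window just upstream, −976 to 23 bp, the only library with a methylated call was WT replicate 2, at 1.92%.

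Sox2, the HMG-box partner of Pou5f1, had 191 measured promoter cytosines with levels of 0.284% and 0.238% in WT against 0.686% and 0.578% in KO. It was the only one of the 4 tested member promoters whose KO libraries both lay above both WT libraries, which 4.37% of all placed promoters did. The difference of 0.371 points did not pass the test (edgeR adjusted p = 0.201). Its size depended on the cytosines included: it was 0.578 points with a promoter of 1 kb either side (edgeR adjusted p = 0.0141), 0.0730 with 500 bp, 0.181 with methylated calls over all calls and 0.000211 with at least 20 calls. The largest positive difference among the Sox2 windows was 84 to 1083 bp after the start, with 117 cytosines and 2669 to 2999 calls per library. Levels there were 0.233% and 0.175% in WT against 0.767% and 0.637% in KO, a difference of 0.498 points (edgeR adjusted p = 0.00167). Every library remained under 1% methylation in that window, and it was called higher only if the 10-point minimum was dropped. Its methylated KO calls lay partly at neighbouring cytosines of like depth. At 647 and again at 655 bp after the start, KO replicate 1 had 1 of 20 and KO replicate 2 had 1 of 13. Such calls can come from the same reads, so the number of calls and the p-value can overstate the support.

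Klf4, a zinc-finger factor downstream of LIF and Stat3, had 253 measured promoter cytosines, the most of the 5 genes. The levels were 0.736% and 0.623% in WT against 0.294% and 0.454% in KO. KO was lower without overlap of the groups, as at 65.4% of all placed promoters. The difference of −0.305 points did not pass the test (edgeR adjusted p = 0.0554), and within 500 bp of the start it had the opposite sign, 0.0932 points. In the 300 bases around the start, 7 cytosines gave 0 methylated calls in every library, from 79 to 160 calls. If every call were independent, counting error alone would allow a level of up to 2.86% and 2.29% in WT and to 3.80% and 1.88% in KO there. Cytosines on the same strand each had 19 and 23 calls in WT and 13 and 31 in KO, so they can share reads. The limits would then be higher.

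Esrrb, an orphan nuclear receptor that can replace part of Nanog's role in ES cells, was the exception among the tested promoters. At its first start, 25 cytosines averaged 85.0% and 87.7% in WT against 33.9% and 17.04% in KO. Both KO libraries were far below both WT libraries, and they also stood apart from each other. The level fell by 60.9 points, from 86.4% ± 1.90 (SD, n = 2) to 25.5% ± 11.9 (SD, n = 2) (edgeR adjusted p = 8.4e-08). In WT this promoter was more methylated than 99.4% of all placed promoters, and 83 of the 8402 had a WT level of at least 80%. Placing a start needed at least 6 matched CpGs, so promoters with fewer CpGs are missing from this ranking. Of 27026 genes, 8461 had a placed start. The first Esrrb start, with 6 CpGs matched, was at that minimum. A single CpG, 8 bp before the first start and in capitals in the sequence above, read 59.5% and 31.0% in WT against 13.3% and 3.33% in KO.

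The promoter at the second Esrrb start was low in every library, as were those of Pou5f1, Sox2 and Klf4. Its 152 measured cytosines averaged 3.67% and 3.97% in WT against 2.89% and 1.30% in KO. Here too KO was lower without overlap, as at 65.4% of all placed promoters. The difference of −1.73 points is under the 10-point minimum (edgeR adjusted p = 0.0191). The 8 cytosines in the printed sequence of the second start read 3.04% and 3.02% in WT against 3.47% and 1.39% in KO, so there the KO libraries lay on either side of WT. The call at Esrrb was made at the first of its RefSeq starts. With a WT mean of 3.82% the second could not fall by 10 points, so its missing call carries no information.

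**Figure D2:**
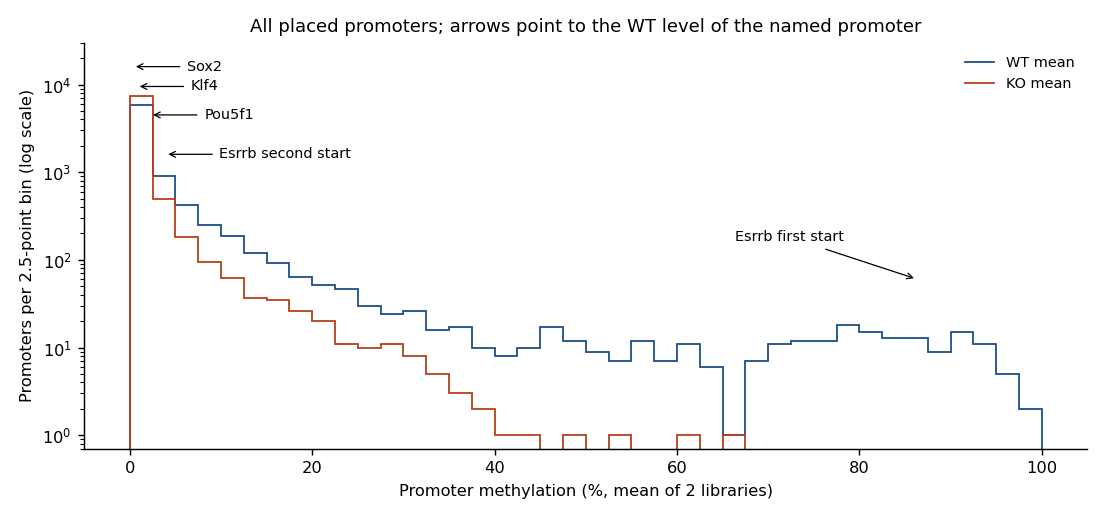
Number of placed promoters (vertical axis, log scale) by promoter methylation in percent (horizontal axis, mean of 2 libraries, bins of 2.5 points), drawn for WT and KO. Arrows mark the WT level of named promoters: Sox2 at 0.261%, Klf4 at 0.680%, Pou5f1 at 2.15%, the second Esrrb start at 3.82% and the first at 86.4%.

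Nanog, the homeodomain factor whose level varies between ES cells, could not be tested at its promoter. Within 2 kb of the recalled start, 4 cytosines were listed, with 6 calls over all libraries and none with 5 calls in every library. The 8 measured cytosines lay together about 4.6 to 4.7 kb upstream of that start, with between 466 and 530 calls per library. Methylated calls numbered 4 and 0 in WT and 1 and 2 in KO. The mean levels were 0.813% and 0% in WT against 0.187% and 0.447% in KO, with the KO libraries between the WT libraries (exact two-sided permutation p = 1, difference −0.0898 points). The 0 of 477 calls in WT replicate 2 allows a level of up to 0.629% from counting error alone, if every call were independent. Calls at these neighbouring cytosines can share reads, and the limit would then be higher.

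Outside the promoters, the intervals of Pou5f1, Sox2, Klf4 and Esrrb were more methylated in WT than in KO. The groups did not overlap at any of the 4. No such share is given for regions of this size, but 90.8% of all windows of 1 kb had KO lower without overlap. This pattern alone therefore does not set the 4 genes apart. For Pou5f1, 26 cytosines averaged 9.18% and 8.97% in WT against 1.85% and 3.65% in KO, a difference of −6.33 points. For Sox2, 68 cytosines averaged 6.08% and 6.20% in WT against 1.48% and 1.69% in KO, a difference of −4.56 points. For Klf4, 44 cytosines averaged 10.8% and 10.53% in WT against 2.54% and 2.34% in KO, a difference of −8.22 points. That Klf4 value rests largely on 5 cytosines 9282 to 9418 bp after the start, with 7 to 12 calls and 62.5% to 100% methylation in WT, and with at least 10 calls in every library the difference was −2.13 points. Within each of these genes the 2 libraries of a genotype lay closer together than the groups did.

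The interval of Esrrb held 422 cytosines outside its first promoter, with 23.1% and 23.8% in WT against 6.70% and 5.13% in KO, a difference of −17.6 points. For Pou5f1, Sox2, Klf4 and Esrrb the exact two-sided permutation p was 0.3333, the smallest possible. Between the Esrrb promoters, 65 cytosines averaged 46.8% and 46.3% in WT against 16.1% and 13.3% in KO. Downstream of the second promoter, 198 cytosines averaged 28.7% and 30.2% in WT against 6.49% and 5.22% in KO. In both stretches the KO libraries were well below the WT libraries and close to each other.

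Tested window by window, 31 of the 56 windows (55.4%) were called lower in KO and 0 higher, against 79.9% lower and 0.00386% higher over all windows. Esrrb gave 28 of its 35 (80%), close to the share over all windows, whereas Pou5f1 gave 1 of 5, Sox2 1 of 9, Klf4 1 of 6 and Nanog 0 of 1. At an unadjusted p below 0.05, edgeR put 43 windows lower and 1 higher, and limma and Fisher's exact test each called 31 lower and 0 higher. The number lower was 20 with a minimum of 25 points. No share over all windows is given at these settings, so those counts cannot be set against it. Without the minimum, 42 were lower and 1, in Sox2, was higher, against 86.5% and 0.12% of all windows. When every library was centred on its own genome-wide shift, 3 were below that shift and 24 above it, against 4.59% and 27.3% of all windows. A window near 0 in WT has little room to fall, and its part in these counts was not tested. Regardless of the test, KO was lower in both libraries without overlap in 44 of the 56 windows and higher without overlap in 2, against 90.8% and 0.968% of all windows.

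The called windows were those with the higher WT levels: every called window had a WT mean of at least 13.1% and every other window at most 10.8%, and a window below 10% cannot fall by the 10-point minimum. Of the 56 windows, 24 (42.9%) had a WT level below 10%, against 18.3% of all windows, and 8 (14.3%) had a WT level of at least 80%, against 50.6%. The median WT level was 15.3% in the 56 windows and 80.4% in all windows. All 23 member windows with a WT level of at least 20% were called lower, as were 99.5% of all such windows. In those 23 the KO level was at the median 27.3% of WT, against 26.8% for all windows.

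**Figure D3:**
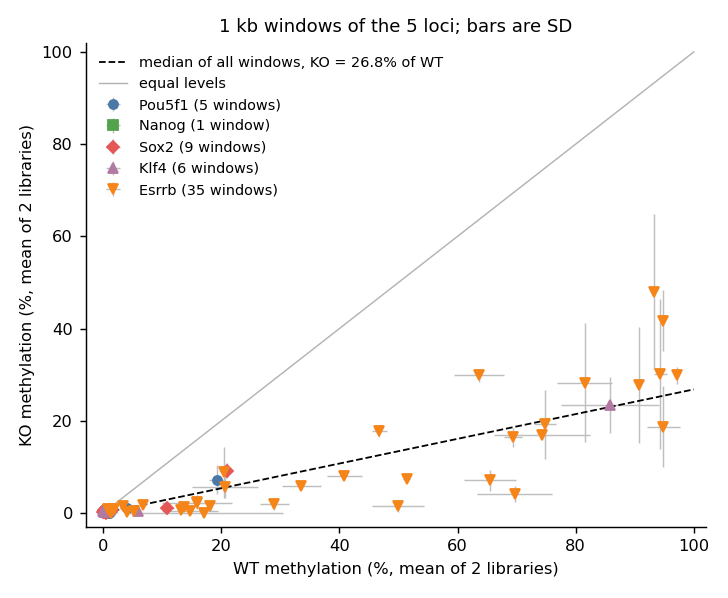
KO methylation against WT methylation of the 56 windows, both in percent (mean of 2 libraries), coloured by gene, with bars for the SD and a dashed line at the genome-wide median ratio of 26.8%. Windows of Pou5f1, Nanog and Sox2, and 5 of the 6 of Klf4, crowd below 25% on the WT axis, and the Esrrb windows spread along the dashed line.

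Near Pou5f1, the called window lay 8024 to 9023 bp after the start, nearest to the placed start of Tcf19, a neighbouring gene. Its 15 cytosines read 20.1% and 18.2% in WT against 5.02% and 9.43% in KO. Both KO libraries were thus below both WT libraries, as in 90.8% of all windows. The level fell by 11.96 points (edgeR adjusted p = 0.00165). The smallest difference among the Pou5f1 windows was −0.907 points, 1024 to 2023 bp after the start.

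Near Sox2, the called window lay upstream, from −5916 to −4917 bp, with 21.5% and 20.5% in WT against 8% and 10.4% in KO. The level fell by 11.8 points (edgeR adjusted p = 0.0189), and KO stood at 43.8% of the WT level there. A second window, 6084 to 7083 bp after the start, read 10.0% and 11.6% in WT against 1.13% and 1.07% in KO. Its difference of −9.70 points had the smaller edgeR adjusted p, 1.61e-08, but lies just under the 10-point minimum. The smallest difference was in the window −916 to 83 bp around the Sox2 start, 0.0355 points.

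Near Klf4, the called window lay 8347 to 9346 bp after the start and held 3 cytosines with 21 to 36 calls per library. It read 80.0% and 91.7% in WT against 27.8% and 19.05% in KO. The level fell by 62.4 points (edgeR adjusted p = 9.52e-06), the largest fall at Klf4. Each of the 3 cytosines had 10 and 8 calls in WT and 12 and 7 in KO. They can share reads, so the p-value can overstate the support. At 2347 to 3346 bp after the start the level was 6.04% and 5.6% in WT against 0% and 0.855% in KO. The smallest difference at Klf4, 0.0963 points, was in the window −653 to 346 bp around the start, which is also near the placed start of Gm12506 and read below 0.3% in every library.

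At Esrrb the windows alternated between high and low WT levels over about 160 kb. Around the first start, the window from −1066 to −67 bp read 93.6% and 95.1% in WT against 41.5% and 18.6% in KO. The next, from −66 to 933 bp, read 76.1% and 73.4% in WT against 24.5% and 13.9% in KO. The largest fall of all 56 windows, by 76.1 points, was 77934 to 78933 bp after the first start, where WT read 92.9% and 96.9% and KO read 25% and 12.5% (edgeR adjusted p = 7.08e-15). In these 3 windows KO replicate 2 was lower than KO replicate 1, as in 21 of the 35 Esrrb windows and 80.8% of all windows.

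The share of WT methylation that remained in KO differed along Esrrb. The window 45934 to 46933 bp after the first start kept the most of the 23 member windows with a WT level of at least 20%, with 93.2% and 93.3% in WT against 59.9% and 36.2% in KO. The window from 93934 to 94933 bp kept the least, with 53.1% and 46.9% in WT against 2.38% and 0.610% in KO. That corresponds to 51.5% and 2.99% of the WT mean, around a median of 25.7% over the 21 such Esrrb windows. The windows from 90934 and from 33934 bp came next to the least, at 5.88% and 6.46%. Over all such windows the 5th and 95th percentiles of this share were 8.88% and 50.3%.

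The Esrrb windows low in WT were low in KO as well. From 40934 to 41933 bp, WT read 0.935% and 0.805% and KO 0.259% and 1.48%, the smallest difference of the 56 (edgeR adjusted p = 0.96). The window over the second start, 59934 to 60933 bp, read 1.65% and 2.11% in WT against 1.08% and 0.816% in KO. Further downstream, from 61934 to 62933 bp, WT was at 20.2% and 20.8% and KO at 12.6% and 4.93%, a fall by 11.7 points (edgeR adjusted p = 0.00139). From 102934 to 147933 bp, 9 windows had WT means between 3.97% and 18.1%. Of them, 7 were called lower with KO means under 3%, where 79.9% of all windows were called lower.

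**Figure D4:**
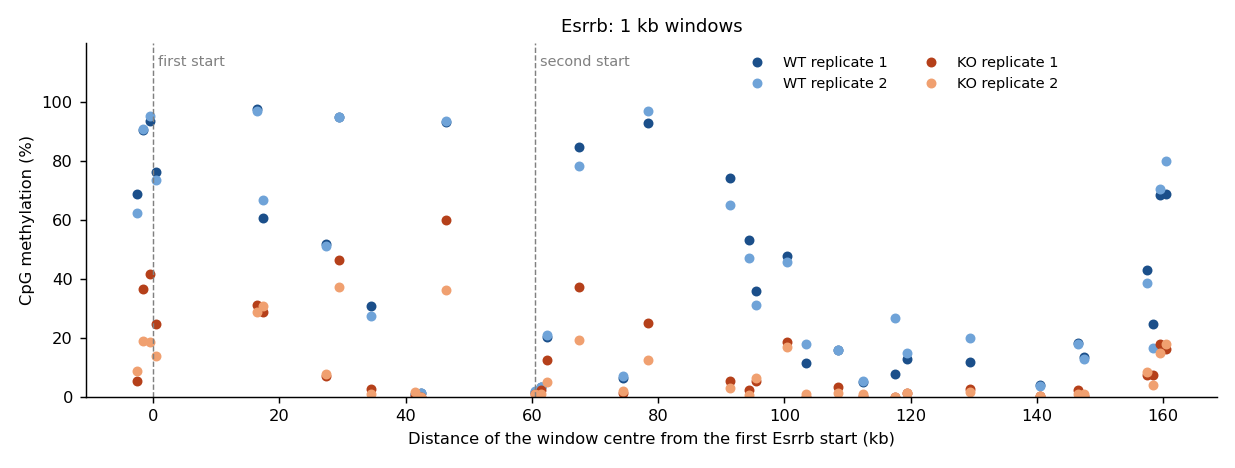
Methylation in percent of the 35 Esrrb windows of 1 kb (vertical axis) by distance of the window centre from the first start in kb, 1 point per library, with dashed lines at both starts. WT points lie between 62.4% and 95.1% around the first start and near 0 at the second. In 34 of the 35 windows both KO points are below both WT points, against 90.8% of all windows.

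Of the 1064 cytosines, 146 (13.7%) were called lower and 0 higher, against 34.6% lower and 0.00146% higher over all cytosines. Esrrb, with 447 of the cytosines, held 135 of the 146, or 30.2% of its own, near the share over all cytosines. Sox2 held 6 (2.32%), Klf4 3 (1.01%), Pou5f1 2 (3.77%) and Nanog 0. At an unadjusted p below 0.05, edgeR put 188 lower and 0 higher, and limma and Fisher's exact test each called 177 lower and 0 higher. No share over all cytosines is given at these settings, so those counts cannot be set against it. Without WT replicate 1 the count lower was 95, and without WT replicate 2 it was 96. In 431 of the cytosines no library had a methylated call, and those could not be fitted and were given a p of 1.

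Outside Esrrb the called cytosines were grouped. The 2 at Pou5f1 lay 8493 and 8566 bp after the start, and the first of them read 32.3% and 25% in WT against 5.10% and 8.64% in KO. The 6 at Sox2 lay 6513 to 6845 bp after the start, inside the window just under the 10-point minimum, and 5 of them had 0 methylated calls in both KO libraries. The 3 at Klf4 lay 9317 to 9393 bp after the start, with 7 to 12 calls per library each. None of these 11 cytosines was within the promoter of Pou5f1, Sox2 or Klf4.

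**Figure D5:**
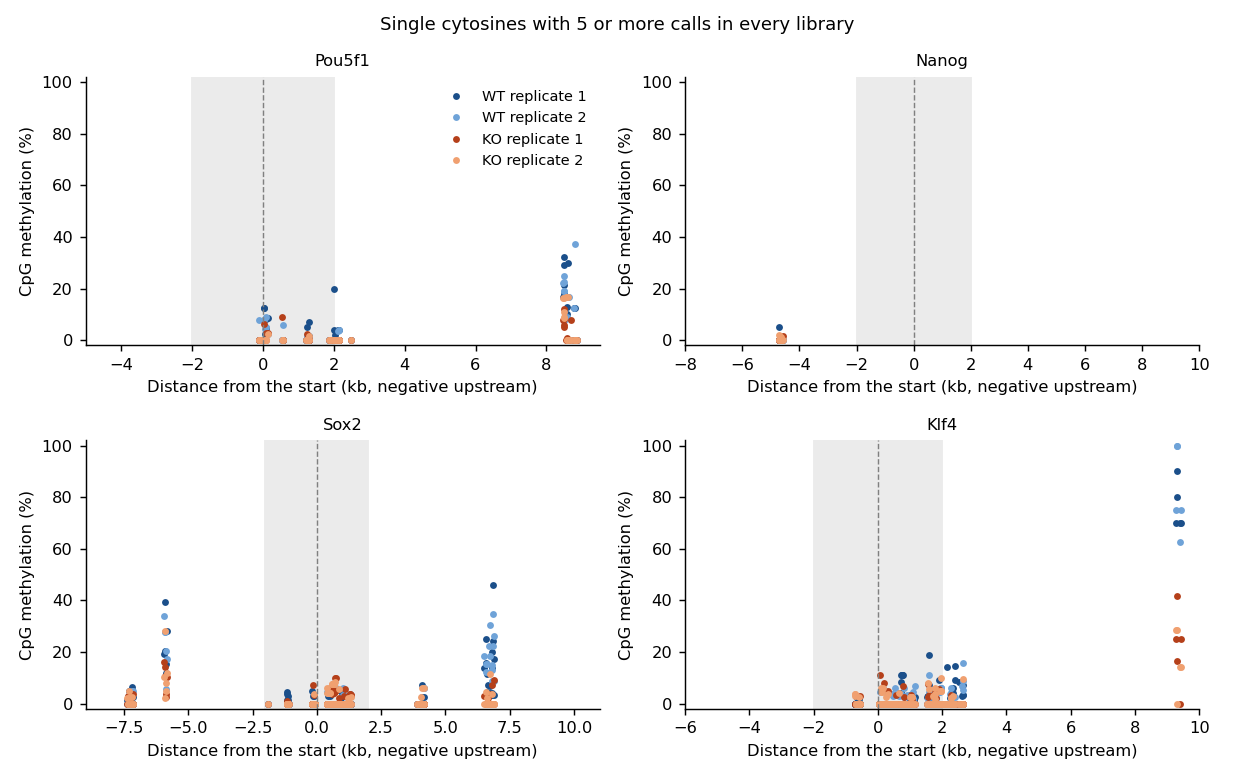
Methylation in percent of single cytosines (vertical axis) by distance from the start in kb for Pou5f1, Nanog, Sox2 and Klf4, 1 point per cytosine and library, with the promoter shaded and a dashed line at the start. Most points lie near 0 around the starts of Pou5f1, Sox2 and Klf4, the Nanog points lie only upstream of its promoter, and WT points exceed 20% only at more than 5 kb from the start.

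Of a list of 29 further pluripotency genes, 17 had at least 6 CpGs in the promoter sequence, which placing a start needed. A start could be placed and tested for 9: Gbx2, Zfp281, Tfcp2l1, Mybl2, Fgf4, Klf2, Stat3, Il6st and Lifr. Promoters on the list with fewer CpGs were thus not examined. Of these 9, 0 were called lower and 0 higher with edgeR, limma or Fisher's exact test, against 7.88% and 0% of all placed promoters. At an unadjusted p below 0.05, edgeR put 3 lower and 0 higher, and without the 10-point minimum 1 of the 9 was lower, against 46.2% of all placed promoters. All 9 had a WT mean below 2%, as did 66.7% of all placed promoters. None of the 9 could therefore fall by the 10-point minimum, whichever test was used. The median difference was −0.138 points, against −0.395 over all placed promoters.

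The largest differences on that list were at Klf2, Tfcp2l1 and Gbx2. Klf2, a Krüppel-like factor that overlaps with Klf4 in function, read 1.67% and 1.81% in WT against 0.348% and 0.418% in KO, a difference of −1.36 points (edgeR adjusted p = 4.87e-06). Tfcp2l1, a factor downstream of LIF, differed by −0.592 points and Gbx2, a homeobox gene, by −0.553 (edgeR adjusted p = 0.0508 and 0.185). Of 10 fibroblast genes, included because the cells had been grown on feeders, 4 promoters could be tested and 2 were called lower, against 7.88% of all placed promoters. The differences were −29.9 points at Col1a2 and −11.1 at Twist2, which were called, and −2.42 at Fbln2 and −0.508 at Twist1, which were not. The libraries' content of feeder DNA was not tested.

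The promoters most like each member over the 4 libraries were named by Euclidean distance of their levels among promoters with at least 10 cytosines. For the first Esrrb start these were Espnl and Npc1l1, at distances of 2.25 and 5.19 points. For Pou5f1 they were Dchs2 and Msl3, at 0.306 and 0.350 points, for Sox2 Ggct and Wdr73, at 0.117 and 0.125 points, and for Klf4 Fkbp4 and Rpl28, at 0.0825 and 0.0848 points.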

How the data were processed

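Each library's table, as the authors deposited it, lists CpG cytosines with their position, methylation in percent, and counts of methylated and of unmethylated calls. The deposited percent equals the methylated share of the deposited counts, and the counts, which are not normalised, were used throughout. The submitters' processing notes name Trim Galore, Bismark 0.10.1 and the build mm9. The sources used here give no settings for trimming or duplicates. PCR duplicates, if kept, would overstate the precision of the counts, and limits given for a count of 0 cover counting error only. Neighbouring cytosines on the same read were counted as separate calls. This can also overstate precision, in those limits and in the tests of windows and promoters. Filled-in bases at MspI ends can also be read as calls.

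Cytosines of chromosomes 1 to 19, X and Y with at least 5 calls in every library were kept, and windows and promoters needed at least 3 of them. No mm9 annotation was used. Starts were placed by matching at least 6 CpGs of the RefSeq promoter sequence (GRCm38.p6) to listed cytosines. All 8461 placed starts followed the order of the GRCm38.p6 gene table, and 8402 promoters were tested. Methylated and unmethylated counts were tested with edgeR 4.0.16 (R 4.3.3), with a term per library, one for methylation state and its interaction with genotype, over all features of a kind. Features that could not be fitted were assigned a p of 1 and counted in the adjustment. The procedure was also run on simulated counts that used the spread of the WT libraries only. Over all cytosines the SD was 2.66 points in KO against 0.0099 in WT (n = 2 each). The simulated run therefore does not cover the KO spread. Groups and replicate numbers came from the sample titles. Alternatives were other call minimums, window and promoter sizes, difference minimums, summed strands, centring, a replicate block, limma 3.58.1, Fisher's exact test and leaving out each library.

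Named were the 5 genes, the windows of largest and smallest difference in each interval, the 3 largest differences among the other pluripotency genes, and the 2 promoters closest to each member. Other windows and single cytosines were chosen after their values were seen, as were Col1a2 and Twist2. The members, lists and tests were chosen with earlier results of these data known.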

Additional observations from a re-analysis of the deposited data

How the results depend on the processing

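Klf4 changed sign within 500 bp of the start (0.0932 points), and Esrrb was not called at its second start (−1.73 points). That second promoter and those of Pou5f1, Sox2 and Klf4 were too low in WT to fall by 10 points. Pou5f1 was never called, and its edgeR adjusted p rose above 0.05 with 10 calls (0.0607), 20 calls (0.0749), 1 kb (0.136) and 500 bp (0.146). It stayed below 0.05 with strands summed (0.0188) and with the replicate number as a block (0.0384). Sox2 was never called either, and its difference ran from 0.000211 points with 20 calls to 0.578 with 1 kb (edgeR adjusted p = 0.0141). Outside the promoters the differences at Pou5f1, Sox2, Klf4 and Esrrb were negative under every alternative run, and their sizes moved with the cytosines included. With methylated calls over all calls, Pou5f1 was −8.07, Sox2 −4.76, Klf4 −5.08 and Esrrb −15.0 points. With 10 calls, Sox2 was −4.38, Klf4 −2.13 and Esrrb −16.2, and with 20 calls Pou5f1 was −12.1, Sox2 −4.92, Klf4 −2.10 and Esrrb −15.6. With promoters of 1 kb, Pou5f1 was −4.48, Sox2 −2.61 and Klf4 −2.95, and with 500 bp Pou5f1 was −4.12, Sox2 −1.26, Klf4 −2.15 and Esrrb −19.5. Strands summed gave −10.5 for Klf4 and −19.5 for Esrrb, and the second start gave −29.4 for the rest of Esrrb. Lower windows numbered 16 with 20 calls and 20 with 25 points, with no share over all windows given at those settings. After centring on the genome-wide shift, 3 windows were below that shift and 24 above it, against 4.59% and 27.3% of all windows. A window above the shift can still be lower in KO than in WT. Without a minimum difference, 1 window was higher, against 0.12% of all windows. At that setting 1 promoter of the other pluripotency genes was lower, against 46.2% of all placed promoters. Lower cytosines numbered 72 with 20 calls, with no share over all cytosines given at that setting.

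Leaving out 1 library at a time gave −69.3 to −52.5 points at the Esrrb promoter, −2.14 to −1.13 at Pou5f1, 0.317 to 0.425 at Sox2 and −0.385 to −0.225 at Klf4. For the Nanog cluster it gave −0.496 to 0.317 points, and with strands summed 0.116, so its sign depends on these choices. Lower windows ranged from 23 to 30 and lower cytosines from 95 to 122. With 1 library left in a group, that library was assumed to vary like the others.

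Whether the replicate numbers pair the libraries is not known. Deviations of same-numbered libraries had a correlation of −0.0046 over 123505 windows. With 2 libraries per group, this value cannot show whether same-numbered libraries shared a culture or preparation. With the number as a block, 31 windows and 128 cytosines were lower and the Esrrb promoter kept its call. The Nanog promoter, with 6 calls in all, could not be tested.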
